A study of Mus musculus with 4 samples.

Results

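Hox genes encode homeodomain transcription factors and lie in 4 clusters in the mouse, Hoxa, Hoxb, Hoxc and Hoxd. All 38 Hox genes described here were chosen by symbol: every expression row whose gene name held one of them was taken, and a row that joined neighbouring Hox genes was kept as 1 unit. The members filled 33, 32, 33 and 32 rows in the libraries in the order given next, of 33854 named units over the whole series.

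Messenger RNA was sequenced from dermal cells of mouse embryos with a LacZ reporter at Axin2, which is switched on by canonical Wnt signalling and so marks cells that respond to Wnt. The skins were ventral foot at E17.5 and dorsal back at E14.5, and both were sorted by fluorescence into an Axin2-LacZ positive and an Axin2-LacZ negative fraction. The 4 groups hold 1 library each, so no difference below has a replicate check and no p-value is given. Values are listed in the order foot labelled positive, foot labelled negative, back labelled positive, back labelled negative unless the sentence says otherwise. All 4 groups carry the same reporter allele. Whether embryos were pooled, and whether fore or hind feet were taken, is not given in the sources used here. Site and stage changed together in every comparison of foot with back and cannot be told apart.

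The number that follows the cluster letter names the paralogue group, and genes of low number sit at one end of a cluster and genes of high number at the other. Along the trunk the order of genes on the chromosome follows the order of their expression domains from head to tail, a property called collinearity. In the limb bud, genes of the Hoxa and Hoxd clusters with high group numbers are used in nested domains, and group 13 marks the future hand and foot. Fibroblasts of the skin are known to keep Hox patterns that reflect where on the body they lie, and Hox proteins bind DNA together with the TALE homeodomain cofactors of the Pbx and Meis families.

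Expression is given as FPKM as deposited, the number of fragments per kilobase of a transcript relative to all fragments mapped in the library, followed by the lower and upper bound that the authors' files give for it. FPKM is a level per length, so levels of different Hox genes can be set beside each other. The bounds cover counting and read assignment within 1 library. Their median half-width at 5 FPKM or more was 23.0% and 14.1% of the value in the foot libraries and 9.07% and 9.94% in the back libraries, so the foot values are the less precise ones. Total read counts are not used here and the depth is unknown. No Hox row lay outside its own bounds, and every one had the status OK. A value of exactly 0 can be a failed estimate: 19, 4, 7 and 6 units with at least 20 FPKM in each of the other libraries were listed at 0 in the library concerned. Such values are therefore called "listed at 0", and no fold is given against them.

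As a check of the sort, Axin2 stood at 9.65 (7.10 to 12.5), 12.9 (10.2 to 15.3), 4.49 (3.89 to 5.09) and 3.13 FPKM (2.63 to 3.64). In the foot the Axin2 level went against the label as deposited, with bounds that overlap and a scaled log2 ratio of -0.14 ± 0.45. In the back it went with the label, at 0.27 ± 0.25, with scaled bounds that overlap. Neither ratio reached 2-fold, so the fractions are called by their labels throughout. All 8 dermal fibroblast markers reached 1 FPKM in every library. Markers of other cells differed between libraries. Rows that hold the 8 keratinocyte markers summed to 7.56, 0, 61.4 and 25.6 FPKM, with 6 and 8 of the markers listed at 0 in the foot. In the back some of these rows join markers with other keratin genes, and differently in each library, so these sums do not cover the same genes. The 4 mast cell markers summed to 2.17, 265, 24.6 and 83.9 FPKM. The 3 neuron markers found summed to 0.187, 1.11, 48.7 and 16.3 FPKM, nearly all of it Stmn2. Their part in the Hox levels was not tested. In bulk samples such as these, fewer cells that express a gene and less RNA per cell cannot be told apart.

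Foot and back dermis used largely separate sets of Hox genes. Of the members' rows, 7 and 6 reached 1 FPKM in the foot libraries, and 12 and 10 in the back libraries. With genes that were joined in any library summed in all, the 38 genes formed 32 units. Of these, 16 units holding 19 genes reached 1 FPKM in at least 1 library, 10 units holding 11 genes stayed above 0 and under 1 FPKM at best, and 6 units holding 8 genes were listed at 0 in each library. The foot levels came from the high-numbered ends of Hoxa and Hoxd, and the back levels from Hoxc, the middle of Hoxd and Hoxa. Most of the Hoxa level in the back came from Hoxa9 with Hoxa10, a unit that was also high in the foot.

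**Figure D1:**
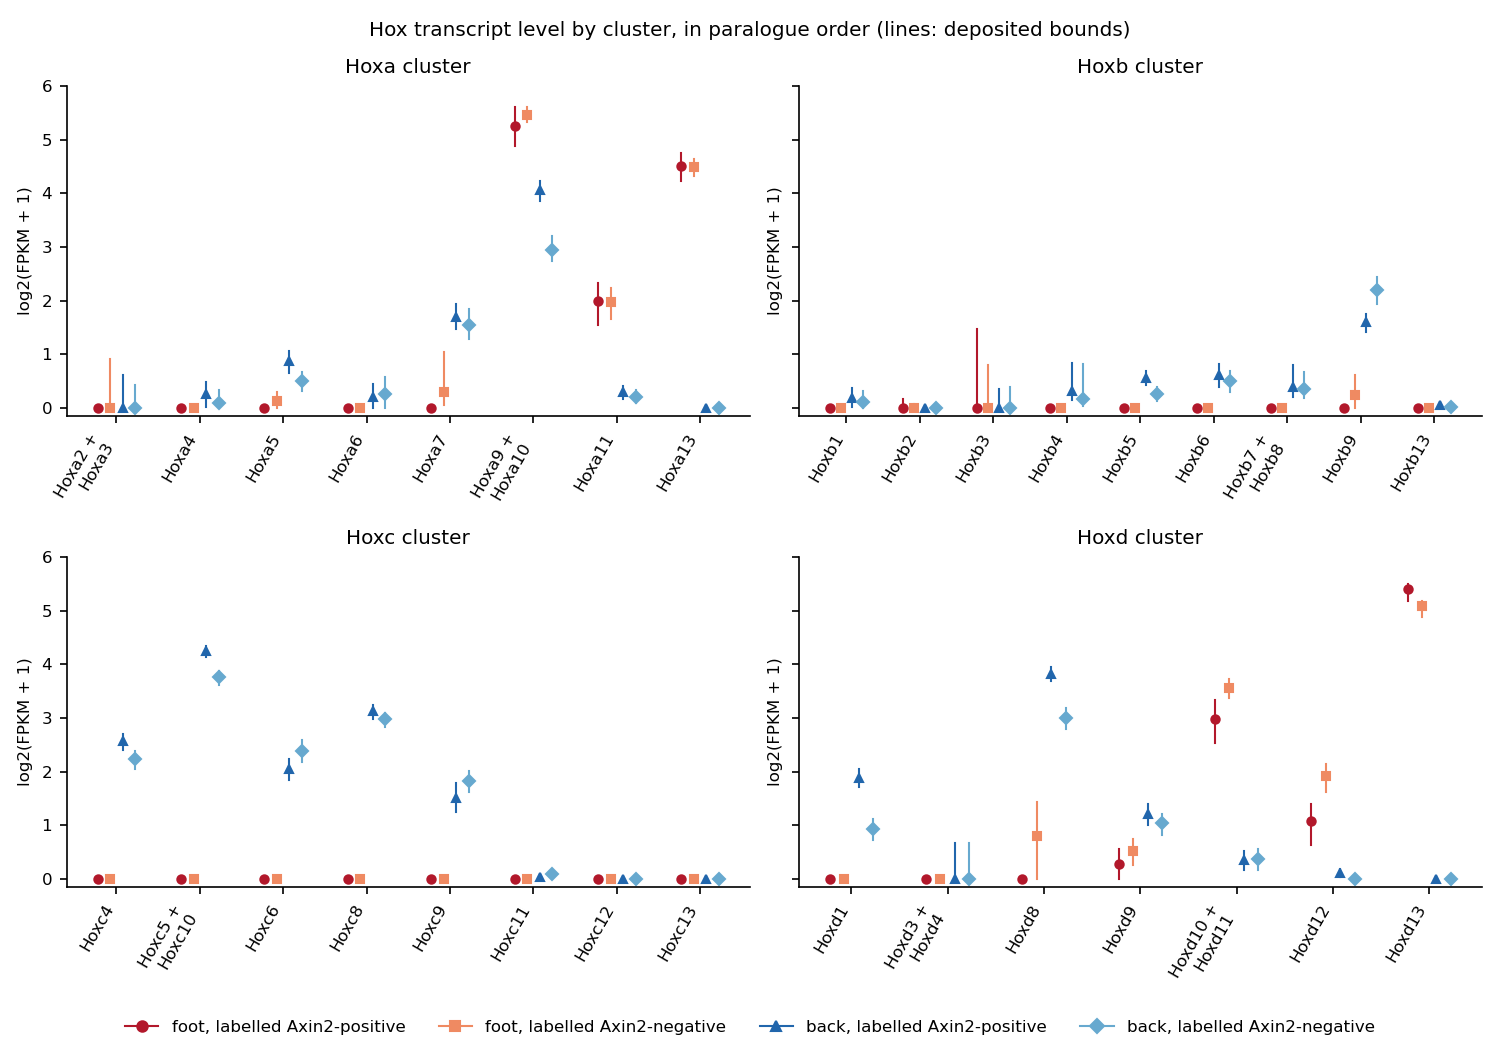
Level of each of the 32 Hox units in each of the 4 libraries, in 1 panel per cluster and in paralogue order (log2(FPKM + 1); points are the deposited values and lines the authors' bounds, summed for joined genes; 1 library per group). The foot libraries stand highest at Hoxd13 and at Hoxa9 with Hoxa10, and Hoxa13 and Hoxd13 are listed at 0 in the back, and among units under 1 FPKM in the foot the back libraries stand highest at Hoxc5 with Hoxc10 and at Hoxd8.

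Of group 13, Hoxd13 and Hoxa13 were abundant in the foot and listed at 0 in the back. Hoxd13, which is required for digit formation, stood at 41.3 FPKM (35.0 to 44.3) in the positive-labelled foot library and 33.0 FPKM (28.6 to 35.0) in the negative-labelled foot library, and is listed at 0 in both back libraries. Hoxa13, its partner in the distal limb, stood at 21.8 FPKM (17.9 to 26.1) and 21.4 FPKM (19.0 to 23.9) in the foot and is likewise listed at 0 in both back libraries. The upper bound of these zeros is also 0. The foot and back values did not overlap for either gene. A pattern of at least 5 FPKM in both foot libraries and 0 in both back libraries was found for 31 of 6036 named units with that foot level, or 0.514%, and Hoxa13 and Hoxd13 are among the 31. The remaining group 13 genes did not share this level: Hoxb13 was listed at 0 in the foot and stood at 0.0435 and 0.0168 FPKM in the back, and Hoxc13 was listed at 0 in every library.

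Groups 9 to 12 of Hoxa and Hoxd also mostly had their higher level in the foot. Hoxd10 and Hoxd11, which act in the limb ahead of group 13, share 1 row with the predicted gene Gm20440, at 6.92 (4.78 to 9.09) and 10.8 FPKM (9.39 to 12.2) in the foot against 0.278 and 0.298 FPKM in the back. Hoxd12 was low but followed the same order, at 1.10 and 2.76 FPKM in the foot against 0.0841 FPKM in the positive-labelled back library, and it is listed at 0 in the one labelled negative. Hoxa11, a gene of the middle limb segment, stood at 3.004 and 2.94 FPKM in the foot and 0.230 and 0.160 FPKM in the back. Each of these 3 rows had foot values above both back values.

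Hoxa9 and Hoxa10 were present in both skins. The libraries labelled positive hold them in separate rows, with Hoxa10 at 28.4 FPKM (23.9 to 32.8) in the foot and 8.54 FPKM (7.63 to 9.46) in the back. Hoxa9, in a row shared with the miRNA gene Mir196b and the transcript 9930038K12Rik, stood at 8.86 FPKM (4.67 to 15.2) in the foot and 7.08 FPKM (5.89 to 8.22) in the back, and these bounds overlap. The libraries labelled negative join Hoxa9 and Hoxa10 in 1 row, at 42.8 FPKM (39.0 to 47.7) in the foot and 6.74 FPKM (5.70 to 8.20) in the back. Summed in the same way in every library, Hoxa9 with Hoxa10 gave 37.3, 42.8, 15.6 and 6.74 FPKM. Hoxa10 with Hoxa9 was thus the one abundant Hox unit with a level above 5 FPKM in all 4 libraries.

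The Hoxc cluster was the reverse of Hoxa13 and Hoxd13: none of its members was above 0 in either foot library. In the back its highest row joins Hoxc5 and Hoxc10 with the predicted gene Gm20398, at 18.1 FPKM (16.5 to 19.2) in the positive-labelled library and 12.7 FPKM (11.3 to 13.6) in the one labelled negative. The span of that row also contains Hoxc9, Hoxc8 and Hoxc6, so its level cannot be assigned to Hoxc5 or Hoxc10 alone. Hoxc8, a thoracic gene of the trunk, had its own row at 7.70 FPKM in the positive and 6.86 FPKM in the negative library. Hoxc4, Hoxc6 and Hoxc9 were lower, at 4.91 and 3.69, at 3.14 and 4.25, and at 1.86 and 2.56 FPKM. The high-numbered end of Hoxc was near or at 0 in the back as well. Hoxc11 stood at 0.0319 and 0.0742 FPKM in the back, and Hoxc12 and Hoxc13 are listed at 0.

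The row of Hoxc5 and Hoxc10 and that of Hoxc8 belong to a pattern, at least 5 FPKM in both back libraries and 0 in both foot libraries, shared by 30 of 5604 named units with that back level, or 0.535%. Several genes known from limb studies are given beside these, and they were chosen after their values were seen, so they serve as description only. Tbx5, the T-box gene of the forelimb, stood at 7.68 and 8.50 FPKM in the foot and at 0.0466 and 0.0721 FPKM in the back. Tbx4, its hindlimb counterpart, stood at 1.46 and 3.55 FPKM in the foot and at 0.0313 and 0.0122 FPKM in the back. Pitx1, a regulator of hindlimb identity, was at 0.183 FPKM in the positive-labelled foot library and listed at 0 in the one labelled negative.

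Within Hoxd the direction changed between neighbouring genes. Hoxd8, in the middle of the cluster, was listed at 0 in the positive-labelled foot library and at 0.736 FPKM (0 to 1.72) in the one labelled negative, against 13.2 FPKM (11.9 to 14.4) and 6.98 FPKM (5.91 to 8.05) in the back. Hoxd9, the next gene, stood at 0.207, 0.438, 1.32 and 1.06 FPKM, low in all libraries and lower in both foot libraries. The neighbouring row of Hoxd10 and Hoxd11 was the first with the opposite order. At the other end, Hoxd1 was listed at 0 in both foot libraries and stood at 2.70 and 0.914 FPKM in the back.

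In Hoxa the same change of direction fell between Hoxa7 and Hoxa10. Hoxa7, a trunk gene, was listed at 0 in the positive-labelled foot library and stood at 0.240 FPKM in the one labelled negative, against 2.24 FPKM (1.77 to 2.84) and 1.93 FPKM (1.44 to 2.59) in the back. The lower-numbered Hoxa genes were nearly silent: the highest was Hoxa5, with 0.833 FPKM in the positive-labelled back library, and Hoxa2 with Hoxa3, in 1 row, is listed at 0 throughout. Hoxb held the smallest share of the Hox level in the back. Of its rows, Hoxb9 alone reached 1 FPKM, at 2.03 FPKM in the positive-labelled back library and 3.63 FPKM in the one labelled negative, where its row is joined with the predicted gene Gm53, against 0.184 FPKM or less in the foot. Hoxb2 and Hoxb3 are listed at 0 in every library, and so is the joined row of Hoxd3 and Hoxd4.

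Promoter sequences of 4 genes that stand at opposite ends of this pattern are shown to let the differences between them be read directly. Each is the 250 bases just upstream of the gene's start in RefSeq on build GRCm38.p6, which is not the mm9 build of the expression files, written 5′ to 3′ on the strand of the gene. Capitals mark TATAAA, the core of a TATA box, together with the overlapping match on the opposite strand, and CTTTGA, a core recognised by the TCF/LEF partners of beta-catenin. Hoxa13 and Hoxd13 were the foot genes listed at 0 in the back, and Hoxd8 and Hoxc4 were back genes.
Hoxa13, chr6:52260881-52261130, minus strand: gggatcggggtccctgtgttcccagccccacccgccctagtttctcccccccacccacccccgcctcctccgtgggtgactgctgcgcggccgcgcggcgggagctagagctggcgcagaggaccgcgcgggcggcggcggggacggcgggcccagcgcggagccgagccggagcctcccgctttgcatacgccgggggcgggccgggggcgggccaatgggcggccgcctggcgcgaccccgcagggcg
Hoxd13, chr2:74667975-74668224, plus strand: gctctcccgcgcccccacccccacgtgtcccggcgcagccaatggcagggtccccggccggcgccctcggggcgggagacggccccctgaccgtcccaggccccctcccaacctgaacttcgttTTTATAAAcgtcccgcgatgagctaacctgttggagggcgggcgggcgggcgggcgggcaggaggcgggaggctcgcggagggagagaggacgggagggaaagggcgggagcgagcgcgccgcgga
Hoxd8, chr2:74704365-74704614, plus strand: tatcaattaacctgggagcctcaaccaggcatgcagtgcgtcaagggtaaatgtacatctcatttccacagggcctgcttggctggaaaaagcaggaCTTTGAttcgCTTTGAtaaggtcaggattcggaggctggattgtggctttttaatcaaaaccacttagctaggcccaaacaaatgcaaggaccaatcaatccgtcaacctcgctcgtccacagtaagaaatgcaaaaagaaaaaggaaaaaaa
Hoxc4, chr15:103034145-103034394, plus strand: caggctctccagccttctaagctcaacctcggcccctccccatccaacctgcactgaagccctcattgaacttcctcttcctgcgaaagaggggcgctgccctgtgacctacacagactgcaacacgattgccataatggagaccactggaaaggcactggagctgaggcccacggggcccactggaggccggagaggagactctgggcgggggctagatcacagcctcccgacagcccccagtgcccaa

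The promoters of the foot pair were rich in CpG dinucleotides, with 35 in Hoxa13 (80% G and C bases) and 31 in Hoxd13 (74.4%). Hoxd8 held 6 (44.4%) and Hoxc4 held 8 (62%). The Hoxd13 window holds TATAAA on both strands, and the Hoxd8 window holds CTTTGA in 2 places. The start used for Hoxd13 was not found in a GENCODE transcript of the gene, unlike the other starts shown. The table held 24 promoter entries for 22 of the 38 genes, with a median of 12.5 CpG against 6 over all 32851 promoters. Searched on both strands, TATAAA was in 4 of the 24 Hox promoters and 12.4% of all, CTTTGA in 3 and 13.8%, and TTTATG, a core bound by caudal-type factors, in 5 and 10.8%. The CpG count did not follow the split of foot and back genes throughout. Hoxd1, a back gene, held 24, and Hoxa11 and Hoxd12, both higher in the foot, held 13 and 10, near the median of the Hox promoters. A match of letters is a description and not evidence of binding.

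Shares of the summed Hox level show the same division. The Hox FPKM summed to 112, 115, 76.4 and 53.7. Hoxa made up 55.6% and Hoxd 44.4% of the sum in the positive-labelled foot library, and 58.5% and 41.4% in the one labelled negative, where Hoxb gave 0.160% and Hoxc nothing. In the back Hoxc made up 46.8% in the positive-labelled library and 56.1% in the one labelled negative. Hoxa followed with 25.3% and 17.8%, Hoxd with 23.0% and 17.2%, and Hoxb with 4.97% and 8.89%. All shares leave out unnamed loci, which are rows that the authors' assembly lists without a gene name. With such loci Hoxd8 alone came to 28.6 and 21.9 FPKM in the back, against 19.3 and 9.54 FPKM for all of Hoxa without them. The order of Hoxa and Hoxd in the back therefore depends on whether they are counted, and shares with them were not computed.

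By paralogue group, groups 9 to 13 held 100% and 99.1% of the Hox level in the foot and 28.1% and 27.1% in the back. Group 13 alone held 56.6% and 47.2% in the foot and 0.0569% and 0.0314% in the back. Groups 4 to 8 held 44.4% and 47.4% in the back, against 0.934% in the negative-labelled foot library and none in the one labelled positive. Groups 1 to 3 held 3.72% and 1.87% in the back, all but a small remainder of it Hoxd1. The row of Hoxc5 and Hoxc10 spans these blocks and was kept apart, at 23.7% and 23.6% in the back. The row of Hoxd3 and Hoxd4 spans blocks too and was kept with it, but it is listed at 0 in each library. Between the fractions of 1 skin each of the 4 blocks differed by less than 4 percentage points.

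**Figure D2:**
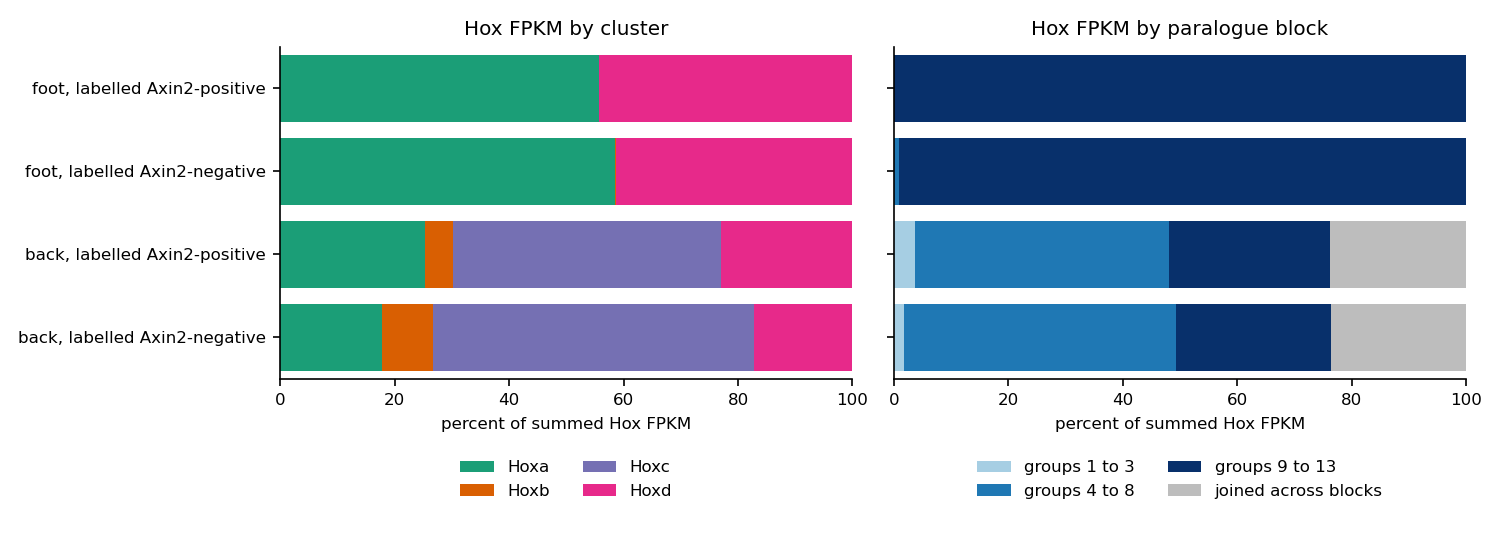
Share of the summed Hox FPKM in each library (percent, horizontal stacked bars from 0 to 100) by cluster and by block of paralogue groups. The rows that join genes across blocks, Hoxc5 with Hoxc10 and Hoxd3 with Hoxd4, form a block of their own, and the latter is listed at 0 in each library. Groups 9 to 13 fill 100% and 99.1% of the foot bars and 28.1% and 27.1% of the back bars.

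For ratios, FPKM was divided by a factor per library taken over 4834 units of at least 5 FPKM in all libraries, since the median log2 ratio over all units tested was 0.21 and 0.60 as deposited for foot against back in the fractions labelled positive and negative. The ratio is log2((FPKM + 1)/(FPKM + 1)), which makes changes of low genes look smaller, and the value after ± is the half-width from the deposited bounds. A unit was tested where either library reached 1 FPKM and called at 2-fold or more. In the fractions labelled positive, 17 Hox rows were tested. Of these, 5 were higher in the foot (Hoxa10, Hoxa11, Hoxa13, Hoxd10 with Hoxd11, and Hoxd13), while 13.4% of all tested units were called higher. A further 10 were lower in the foot, 9 of them listed at 0 there, while 17.3% of all units were called lower. Bounds did not overlap for 6 rows upward and 10 downward, beside 22.9% and 25.9% of all units. Most of these rows reached the floor only in the library in which they were high, so these counts describe the rows tested and not all members.

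In the fractions labelled negative, 15 Hox rows were tested. Of these, 6 were higher in the foot, 3 of them listed at 0 in the back, beside 12.1% of all tested units. A further 8 were lower in the foot, 5 of them listed at 0 there, beside 14.1% of all. Bounds did not overlap for 6 rows upward and 9 downward, beside 26% and 28.5% of all units. The median log2 ratio was -1.62 over the 17 rows and -1.55 over the 15, and these medians turn on the rows listed at 0. Over the 6 and 7 rows above 0 in both libraries it was 1.11 and -0.81, beside -0.04 and -0.01 over all units tested. The Hox rows thus stood on both sides and had no common direction.

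Ratios are given only where both skins had a value above 0, and those of rows near 0 in one skin depend on the pseudocount. Hoxd10 with Hoxd11 had a log2 ratio of 2.48 ± 0.44 in the fractions labelled positive and 2.74 ± 0.29 in those labelled negative. Hoxa11 followed at 1.57 ± 0.41 and 1.43 ± 0.31. With a pseudocount of 0.1 FPKM these became 3.96 and 4.12 for Hoxd10 with Hoxd11 and 2.99 and 2.94 for Hoxa11. Hoxa10 alone was at 1.34 ± 0.26 in the fractions labelled positive, and Hoxa9 with Hoxa10 at 1.81 ± 0.27 in those labelled negative. On the summed scale Hoxa9 with Hoxa10 gave 0.92 in the positive fractions, below the call, since Hoxa9 itself had a ratio of 0.02 ± 0.78.

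On the lower side, Hoxa7 had a ratio of -1.55 ± 0.51, Hoxb9 of -2.30 ± 0.36 and Hoxd8 of -2.66 ± 0.63 in the fractions labelled negative. With a pseudocount of 0.1 FPKM they were at -3.18, -4.30 and -3.77. Hoxd9 was at -1.06 ± 0.33 in the positive fractions, a call that is lost with values as deposited (-0.94), and at -0.81 ± 0.30 in the negative fractions. With a pseudocount of 0.1 FPKM Hoxd9 was at -2.45 and -1.74, past the call for both labels. Hoxd12 was at 0.87 ± 0.38 in the positive fractions, under the 2-fold call, but at 2.51 with a pseudocount of 0.1 FPKM, which gave 6 rows higher in the foot. These comparisons for the positive and negative fractions use separate libraries in both skins.

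The comparison of the sorted fractions asks which genes differ with the reporter label within 1 skin. Axin2 itself was under the 2-fold call between the fractions of both skins. No Hox row tested passed the 2-fold call on the log2(FPKM + 1) scale between the fractions of either skin. With a pseudocount of 0.1 FPKM 1 of the rows tested did, Hoxd1 in the back, at 1.31. Hoxa9 with Hoxa10, joined in the negative-labelled libraries alone, was not among the rows tested, so these statements do not cover it. Its summed level in the back was 15.6 against 6.74 FPKM, more than 2-fold apart as deposited, and its scaled ratio is given below. In the foot 5 rows were tested, beside 11.1% of all units called higher and 11.3% called lower in the positive-labelled library. In the back 10 rows were tested, beside 4.46% and 3.68%. With Hoxa9 and Hoxa10 summed, every Hox row that reached 5 FPKM in one fraction of a skin also did so in the other fraction.

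In the foot 2 rows differed beyond the bounds, meaning that the scaled bounds do not overlap, and these neighbouring genes went opposite ways. Hoxd13 was higher in the positive-labelled library, with a log2 ratio of 0.56 ± 0.22, and Hoxd12 lower, with -0.63 ± 0.44. These are 1 of 5 rows each way, while bounds lay apart for 17.4% of all tested units upward and 16.8% downward. As deposited, without the scaling, the bounds of Hoxd13 overlap. Hoxa13 (0.27 ± 0.30), Hoxa11 (0.21 ± 0.47) and Hoxd10 with Hoxd11 (-0.34 ± 0.43) stayed within their half-widths, and Hoxa9 with Hoxa10 gave 0.06. Mast cell markers summed to 2.17 FPKM in the positive-labelled library and 265 FPKM in the one labelled negative, and their part in these ratios was not tested.

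In the back 3 rows were higher in the positive-labelled library beyond the bounds, beside 19.2% of all units: Hoxd1 at 0.90 ± 0.28, Hoxd8 at 0.67 ± 0.24 and Hoxc5 with Hoxc10 at 0.31 ± 0.17. Lower beyond the bounds were 2 rows, beside 14.9% of all: Hoxb9 at -0.78 ± 0.31 and Hoxc6 at -0.51 ± 0.30. Hoxa9 with Hoxa10 is in neither count and is given below. The Hoxb9 row is joined with Gm53 in the negative-labelled library alone, so the rows compared were not the same. Hoxc8 (-0.02 ± 0.19, and 0.15 as deposited), Hoxc4 (0.19 ± 0.23), Hoxd9 (0.08 ± 0.31) and Hoxa7 (0.02 ± 0.39) did not differ beyond their bounds, and the bounds of Hoxc9 (-0.47 ± 0.35) overlap. Neuron markers summed to 48.7 FPKM in the positive-labelled back library and 16.3 FPKM in the one labelled negative. Rows that hold keratinocyte markers, joined there with different other keratin genes, summed to 61.4 and 25.6 FPKM. Their part in the Hox ratios was not tested.

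**Figure D3:**
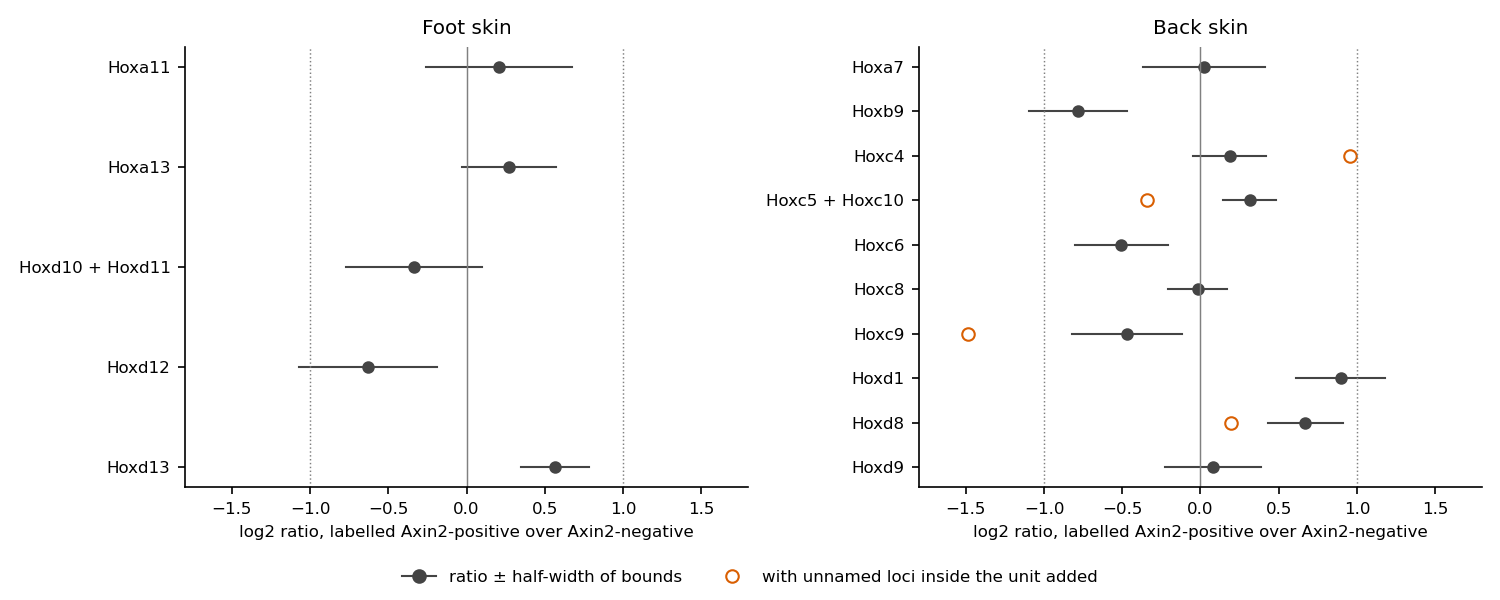
Log2 ratio of the positive-labelled library over the one labelled negative for each Hox row tested, in foot and back (difference of scaled log2(FPKM + 1); lines are half-widths from the authors' bounds, dotted lines mark 2-fold, and open circles show the ratio after unnamed loci inside a row were added to it). No filled point passes 2-fold, and Hoxd1 at 0.90 in the back and Hoxb9 at -0.78 in the back lie farthest from 0. Hoxa9 and Hoxa10 are not shown, since the libraries of each skin hold them in different rows.

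In the back, Hoxa9 and Hoxa10 have separate rows in the positive-labelled library and 1 joined row in the one labelled negative. Their sum was 15.6 FPKM (13.5 to 17.7) in the positive-labelled library and 6.74 FPKM (5.70 to 8.20) in the one labelled negative. As deposited, these bounds do not overlap and the values lie more than 2-fold apart. The scaled log2 ratio was 0.95, larger than that of any row tested between the back fractions and just under the call. It was not computed with a pseudocount of 0.1 FPKM or with values as deposited. In the negative-labelled library an unnamed locus of 1703 bases lies within the span of the joined row (chr6:52173114-52174816, mm9) at 3.95 FPKM (3.05 to 4.49), and with it the unit came to 10.7 FPKM. Unnamed loci are rows that the authors' assembly lists without a gene name.

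Such loci lay inside the Hox clusters in every library, 1, 6, 14 and 7 of them, and in different places. None of those in the foot overlapped a Hox row, and 13 of 14 and 7 of 7 in the back did. The foot loci all lay in Hoxa (chr6:52112350-52210874, mm9, from the first to the last member), but only 2 of 7 had a value within its own bounds, and their values are not used. In the back the clearest case was Hoxd8. A locus within its span (chr2:74544276-74545993 in the positive-labelled library) stood at 15.5 FPKM (14.1 to 16.8), and its counterpart in the negative-labelled library at 14.9 FPKM (12.7 to 55.2), each above the level of the Hoxd8 row itself, with overlapping bounds in the positive-labelled library.

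When unnamed loci with values within their bounds were added to the Hox row they overlap, which was chosen after seeing the data, several back ratios moved. Hoxd8 fell to 0.19 and Hoxc5 with Hoxc10 changed sign, to -0.34. Hoxc9 passed 2-fold, at -1.48, and Hoxc4 rose to 0.95. The Hoxc shifts are one-sided, since loci outside their own bounds were left out. At Hoxc9 a locus of 10.5 FPKM (1.06 to 3.82) was left out in the positive-labelled library. Its counterpart of 3.42 FPKM was added in the one labelled negative. In the span of Hoxc5 with Hoxc10, loci of 27.2 and 2.49 FPKM were left out in the former, while 6.98 and 0.779 FPKM were added in the latter. At Hoxc4 loci were added in the former alone. Between foot and back in the negative fractions, Hoxd8 went from -2.66 to -4.21 and Hoxa9 with Hoxa10 from 1.81 to 1.20, with no change of call. The joined row of Hoxd3 and Hoxd4, listed at 0 in each library, spans 3 such loci in the positive-labelled back library, at 1.42, 2.54 and 1.60 FPKM, and 1 at 0.834 FPKM in the one labelled negative. With them the row came to 5.56 and 0.834 FPKM and passed the call upward, though the last locus has an upper bound of 12762 FPKM. The ratios of Hoxc4, Hoxc9, Hoxc5 with Hoxc10, Hoxd8 and Hoxd3 with Hoxd4 between the back fractions thus changed with which unnamed loci were counted. What lies behind these differences was not tested.

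Named transcripts that are not Hox genes also lie between the members, and several differed between foot and back. Hoxa11as, an antisense transcript at Hoxa11, stood at 29.3 FPKM (23.1 to 35.5) and 43.9 FPKM (38.7 to 49.1) in the foot and at 0.170 and 0.629 FPKM in the back. It overlaps Hoxa11, and strandedness of the counting is not given in the sources used here, so reads of the pair cannot be told apart. Its level per length was several times that of the Hoxa11 row in both foot libraries. Hoxb3os, antisense at Hoxb3, had the opposite order: 0.260 and 0.275 FPKM in the foot and 5.63 FPKM (5.03 to 6.24) and 4.04 FPKM (3.31 to 4.75) in the back. It overlaps the rows of Hoxb2 and Hoxb3, both listed at 0, and the same limit holds.

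Other named transcripts were seen in the back at lower levels. 0610040B09Rik, which overlaps Hoxb5 and Hoxb6, was listed at 0 in the foot and stood at 1.45 and 0.688 FPKM in the back. 6720416L17Rik was above 0 in 1 library alone, the positive-labelled back library, at 1.58 FPKM. Gm15050 stood at 0.249 FPKM in the negative-labelled foot library and 1.33 and 1.55 FPKM in the back. Gm53, beside Hoxb9, had bounds too wide to place it (20.1 FPKM, 0 to 91.8, in the negative-labelled foot library), and the value of Gm11539 lay above its own bounds in each library.

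**Figure D4:**
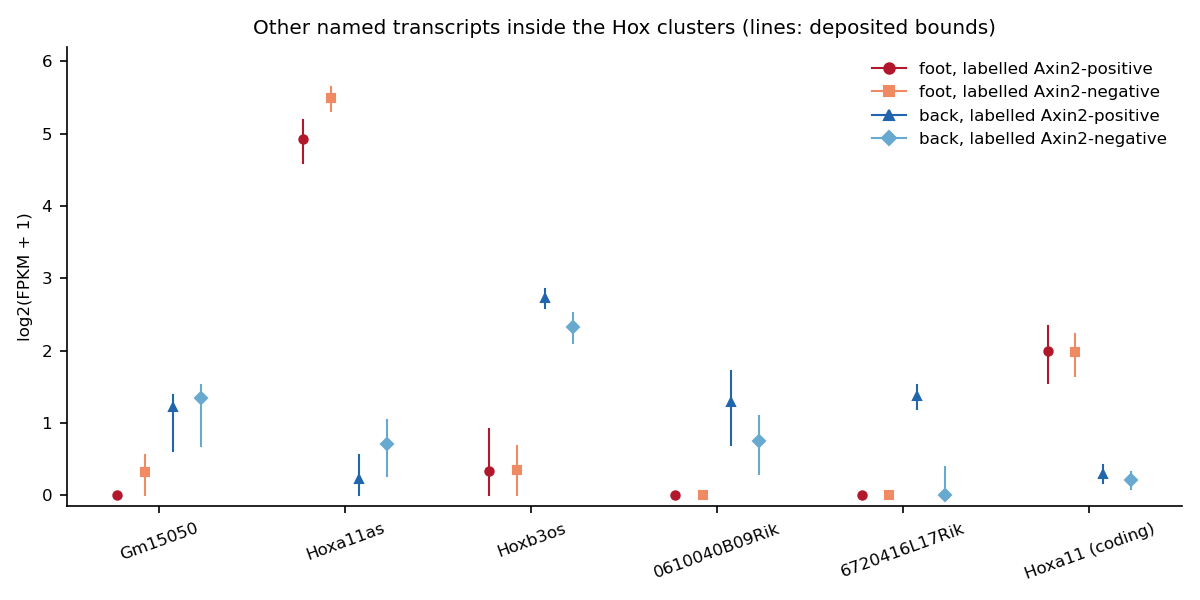
Level of named transcripts inside the Hox clusters that are not Hox genes, in each of the 4 libraries (log2(FPKM + 1); lines are the authors' bounds; the coding Hoxa11 row is shown for comparison). Hoxa11as stands at 29.3 and 43.9 FPKM in the foot and under 1 FPKM in the back, above Hoxa11 in the foot, and Hoxb3os stands at 5.63 and 4.04 FPKM in the back.

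Among the TALE cofactors, Meis1 differed most between the skins. It marks the proximal limb and the trunk, and stood at 0.122 FPKM (0 to 1.74) and 0.534 FPKM (0.0966 to 1.25) in the foot against 23.2 FPKM (21.7 to 24.8) and 12.0 FPKM (10.8 to 13.2) in the back. The log2 ratios were -4.60 ± 0.69 and -3.53 ± 0.45. In the positive fractions 7 cofactors were tested, of which 2 were called higher in the foot and 2 called lower (median 0.27), beside 13.4% and 17.3% of all. Higher were Pbx3, at 8.69 against 2.57 FPKM, and Pbx4, whose ratio of 1.19 ± 1.27 was within its half-width. Lower beside Meis1 was Meis3, at 1.95 against 6.71 FPKM. In the negative fractions 6 were tested and only Meis1 and Meis2 (1.38 against 5.46 FPKM) were called, both lower (median -0.58), beside 14.1% of all called lower.

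A list of 13 genes reported in limb studies as targets of group 13 Hox proteins was also read, chosen with earlier results of these data known. In the positive fractions 10 were tested, with 3 called higher in the foot and 1 called lower (median 0.38), beside 13.4% and 17.3% of all. In the negative fractions 11 were tested, with 5 called higher and 2 called lower (median 0.96), beside 12.1% and 14.1% of all. Hand2, a transcription factor of the posterior limb, stood at 9.59 and 8.22 FPKM in the foot and 0.486 and 0.498 FPKM in the back. Epha7, an ephrin receptor, stood at 9.85 and 6.02 FPKM against 1.31 and 0.627 FPKM. Enpp2, which makes lysophosphatidic acid, stood at 46.8 and 69.1 FPKM against 7.02 and 6.91 FPKM. All 3 were higher in the foot for both labels. Bmp2 and Aldh1a2 were called in the negative fractions alone, at 1.16 ± 0.26 and 1.28 ± 0.29. The genes called lower were Meis1 and, in the negative fractions, Meis2, which are on the cofactor list too.

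Polycomb and trithorax genes encode the regulators that hold Hox clusters off or on. In the positive fractions 1 of 21 tested was higher in the foot and 5 lower (median -0.24), beside 13.4% and 17.3% of all, and in the negative fractions 1 of 22 was higher and 3 lower (median -0.34), beside 12.1% and 14.1%. Ctcf, which sets chromatin boundaries, stood at 1.15, 3.89, 7.34 and 8.07 FPKM, with ratios of -2.17 ± 0.90 and -1.51 ± 0.40. Kdm6b, which removes the Polycomb mark from histone H3, stood at 0.953, 1.72, 3.08 and 3.63 FPKM and was called for both labels. The rest passed for 1 label each. In the positive fractions Suz12 (-1.14 ± 0.46), Pcgf2 (-1.29 ± 0.88) and Phc2 (-1.05 ± 0.62) were lower, and Cbx8 had 1.05 ± 1.39. In the negative fractions Men1 had -2.15 ± 0.35.

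Genes just outside the clusters were read as well. Of 13 neighbours tested in each comparison none was higher in the foot, and 3 and 1 were lower, with medians of -0.62 and 0.01, beside 17.3% and 14.1% of all units called lower. Hnrnpa1, an RNA-binding protein gene near Hoxc, stood at 9.58, 20.3, 99.2 and 79.9 FPKM and was lower for both labels. Cbx1, near Hoxb, stood at 19.0 FPKM against 49.2 in the positive fractions, the latter above its own bounds, and Lnp, beside Hoxd, at 2.37 FPKM against 11.9. Evx2, the homeobox gene next to Hoxd13, was under the call and stood at 1.06 and 0.404 FPKM in the foot and at 0.0525 FPKM or listed at 0 in the back.

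Among genes that feed signals to Hox clusters, the caudal genes Cdx1, Cdx2 and Cdx4 are listed at 0 in every library. Of the Cdx, Gdf11 and retinoic acid list, 7 were tested in the positive fractions, with 2 called higher in the foot and 1 called lower (median 0.15), beside 13.4% and 17.3% of all. In the negative fractions 8 were tested, with 2 called higher and 1 called lower (median -0.15), beside 12.1% and 14.1% of all. Rarb, a retinoic acid receptor, was the one called lower for both labels, at 0.166, 1.92, 1.64 and 4.01 FPKM. The genes called higher differed by label. Cyp26b1, which degrades retinoic acid, and Rdh10, which makes its precursor, were called in the positive fractions at 2.10 ± 0.26 and 1.03 ± 0.31. The synthesis genes Aldh1a2 and Aldh1a3 were called in the negative fractions at 1.28 ± 0.29 and 1.41 ± 0.46. Whether these ratios differ between the labels was not tested.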

How the data were processed

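Messenger RNA of 4 sorted dermal libraries was measured, 1 per group. Per the submitters' processing notes the authors used TopHat and Cufflinks on mm9. The strandedness of counting is not given in the sources used here, nor are versions, annotation and the confidence level of the bounds. The deposited FPKM values, with bounds and a status per row, were used as they stand, and total counts are unknown, so precision is read from the bounds. Groups follow the labels.

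Rows were found by symbol, and joined rows were kept as 1 unit. Start positions in the files count from 0 and were raised by 1. Ratios used a pseudocount of 1 FPKM after median-ratio scaling (factors 1.10, 1.32, 0.893 and 0.786), a floor of 1 FPKM in either library, status OK, and a 2-fold call. With 1 library per group no test was made. Alternatives were a pseudocount of 0.1, a floor of 5 FPKM, values as deposited, any status kept, bounds required not to overlap, rows joined in any library summed in all, and 2 added after seeing the data: rows listed at 0 left out, and unnamed loci added to the Hox rows they overlap. Scripts used Python 3.11.15, pandas 2.3.3, numpy 2.4.6 and matplotlib 3.10.9.

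The members, gene lists (TALE cofactors, Polycomb and trithorax genes, cluster neighbours, limb targets of group 13, Cdx, Gdf11 and retinoic acid genes, and markers of dermal fibroblasts, keratinocytes, Schwann cells, neurons, endothelium, leukocytes, mast cells, skeletal muscle and cartilage) and tests were chosen with earlier results of these data known. Named were every Hox unit of 1 FPKM in any library, list members called between foot and back, transcripts inside a cluster of 1 FPKM in any library, and Axin2. Evx2, the Cdx genes, Tbx5, Tbx4 and Pitx1 were named after their values were seen, and some called list members are not reported here. Marker sums not given elsewhere, in the same order of libraries, were 0.691, 10.7, 1.15 and 0.354 FPKM for Schwann cells, 0.979, 0.461, 5.69 and 3.94 for endothelium, 0.788, 2.48, 2.29 and 11.6 for leukocytes, 1.30, 1.05, 0.873 and 0.937 for skeletal muscle, and 2.78, 2.87, 1.18 and 0.909 for cartilage.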

Additional observations from a re-analysis of the deposited data

How the results depend on the processing

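The counts of Hox rows at least 2-fold apart depended most on the floor and on rows listed at 0. With a floor of 5 FPKM, rows lower in the foot fell to 3 in the fractions labelled positive and to 3 in those labelled negative. With rows listed at 0 left out, 3 were higher and 1 lower in the fractions labelled positive, and 3 were higher and 3 lower in those labelled negative. Between the back fractions, a pseudocount of 0.1 gave 1 row higher in the library labelled positive, Hoxd1 at 1.31. Adding unnamed loci gave 1 higher there, Hoxd3 with Hoxd4, and 1 lower, Hoxc9, with a filter on bounds that fell unevenly on the libraries. Hoxa9 with Hoxa10 is in neither count. All other counts stayed within 1.5 times the value reported under the alternatives run. No log2 ratio of a named row changed direction among those called; 57 of 186 moved by more than their half-width, 30 of them with the pseudocount of 0.1 and 17 with values as deposited. No paired analysis was possible because each group holds 1 library and the labels give no replicate numbers, and for the same reason no library could be left out. The wider bounds in the foot limit what can be said of Hoxd9, Hoxd12 and other low rows there.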
